A study of Mus musculus with 5 samples.

Results

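The genes described here are the 9 MHC class II antigen presentation genes H2-Aa, H2-Ab1, H2-Eb1, Cd74, H2-DMa, H2-DMb1, H2-DMb2, H2-Oa and Ciita. They were listed by symbol and not by a cut on any measured value, though earlier results of these data were known. All 9 were found among the 28692 gene IDs (28625 distinct symbols) listed for the droplet libraries. The study followed mouse kidney through unilateral ureteric obstruction (UUO), in which the outflow of 1 kidney is blocked, and through its reversal. All mice were C57/BL6, 8 weeks old, and kidney cells were dissociated on ice and sorted as live cells with the dye DAPI. The groups were sham surgery (day 0), UUO for 2 days, UUO for 7 days, and reversed UUO, collected 7 days after the obstruction was lifted, on experimental day 14. Each group was a single droplet library (3′ V2 chemistry) that pooled 3 mice. No group therefore has a replicate, the mice cannot be told apart, time points could not be compared by a test, and every interval below is a 95% interval for counting error only. A further sample of 768 wells read by Smart-seq2 mixes time points and enters no comparison of time points.

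MHC class II molecules display peptides from engulfed proteins to CD4 T cells. An alpha and a beta chain pair around the invariant chain (Cd74), which blocks the groove until proteases in the endosome cut it down. H2-M, made of H2-DMa with an H2-DMb chain, then swaps the remaining fragment for peptide, and H2-O, of which H2-Oa is the alpha chain, restrains H2-M. Transcription of the whole set depends on Ciita, a coactivator that is recruited by factors bound to X and Y boxes in the promoters. Dendritic cells and B cells express the set constitutively, macrophages do so after induction by interferon gamma, and mouse T cells do not make class II molecules.

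By the GRCm38 annotation, 7 of the genes lie within 224 kb of chromosome 17, chr17:34092340-34316674, in the order H2-Oa, H2-DMa, H2-DMb2, H2-DMb1, H2-Ab1, H2-Aa and H2-Eb1, with H2-Aa alone on the minus strand. Ciita lies on chromosome 16, chr16:10480059-10528418, on the plus strand. Promoter sequence was at hand in RefSeq (GRCm38.p6) for 6 of the 9 genes. H2-Ab1, Cd74 and Ciita are named only. The stretches below hold the 125 bases before the RefSeq start of 5 of them (neither H2-DMa stretch of that length held a match, and they are not printed), 5′ to 3′ on the gene's strand, and are shown because most of these genes were low together in day 2 macrophages (H2-Oa was too scarce there to tell). Capitals mark the letters GATTGG (Y box, in either orientation) and AACNGATG (X box). The letters were chosen with these sequences in view, so a match is a description.
H2-Eb1, chr17:34305742-34305866, plus strand: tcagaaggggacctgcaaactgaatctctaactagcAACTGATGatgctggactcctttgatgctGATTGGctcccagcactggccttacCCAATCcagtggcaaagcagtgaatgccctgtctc
H2-DMb1, chr17:34153066-34153190, plus strand: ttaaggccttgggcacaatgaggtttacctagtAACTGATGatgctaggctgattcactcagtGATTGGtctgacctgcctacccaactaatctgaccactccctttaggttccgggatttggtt
H2-DMb2, chr17:34145124-34145248, plus strand: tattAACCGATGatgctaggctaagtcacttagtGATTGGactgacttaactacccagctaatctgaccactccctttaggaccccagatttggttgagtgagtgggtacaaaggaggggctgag
H2-Aa, chr17:34287824-34287948, minus strand: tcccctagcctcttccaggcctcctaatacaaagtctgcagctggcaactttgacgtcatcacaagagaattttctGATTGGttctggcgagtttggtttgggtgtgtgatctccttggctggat
H2-Oa, chr17:34092254-34092378, plus strand: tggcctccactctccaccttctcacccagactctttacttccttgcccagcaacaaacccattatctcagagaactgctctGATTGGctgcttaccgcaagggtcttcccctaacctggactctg

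The Y box letters occurred on either strand in the 250 bases before the start of all 6 genes with an entry, against 14.6% of 32851 mouse promoters of that length. In H2-Aa, H2-Eb1, H2-DMb1, H2-DMb2 and H2-Oa the match on the gene's strand began 49, 60, 62, 91 and 44 bases before the start. H2-DMa has a pair of RefSeq starts, and its single match lay 199 bases before the second of them. The X box letters were found in H2-Eb1, H2-DMb1 and H2-DMb2, and in 1.98% of all promoters. In these 3 genes the X box ended 21, 22 and 22 bases before the Y box began, and 0.25% of all promoters held both.

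Cells were assigned by marker genes that include none of the 9, to mononuclear phagocytes, B cells, T cells, NK cells, endothelium, tubule and other classes, and phagocytes were further divided by 7 subset lists. After filters, 3746 sham, 2159 day 2, 4287 day 7 and 3140 reversed cells were left, of which 386, 295, 337 and 302 were not assigned to a class. The sham library stood apart, with a median of 40.6% mitochondrial UMIs (unique molecular identifiers, each counting 1 captured transcript) per deposited cell against 16.2%, 3.00% and 14.0%. Tubule cells, the bulk of kidney tissue, numbered 3069, 1002, 689 and 1521. Sham held 61 phagocytes, against 536, 2312 and 596, and 1 B cell, against 18, 19 and 22. Median UMIs per phagocyte were 3186, 10040, 6567.5 and 6900. Comparisons that leave out sham are those of day 7 with day 2 and of reversed with day 7. Pairs of libraries shared between 16 and 39 cell barcodes. Levels are given as CPM (the UMIs of a gene over all UMIs of its gate, on the counts-per-million scale), and "class II chains" means the sum of H2-Aa, H2-Ab1 and H2-Eb1.

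From day 2 on, the class II chains were well above the T cell level in B cells and in conventional and Ccr7-positive dendritic cells. In macrophages they were much lower on day 2 than in the other libraries. Macrophage-gated cells carried 54292 CPM (52754 to 55863) of the chains in the sham library, 7148 (7054 to 7242) on day 2, 39086 (38970 to 39202) on day 7 and 36200 (35981 to 36420) once obstruction was reversed. Day 2 stood far below the other libraries. The fold was 7.60 down from sham to day 2, 5.47 up from day 2 to day 7, and 1.08 down from day 7 to reversal. As log2 ratios of CPM + 1 these were -2.93 (-2.97 to -2.88), 2.45 (2.43 to 2.47) and -0.11 (-0.12 to -0.10). Reversed macrophages remained below sham, at a log2 ratio of -0.58 (-0.63 to -0.54).

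**Figure D1:**
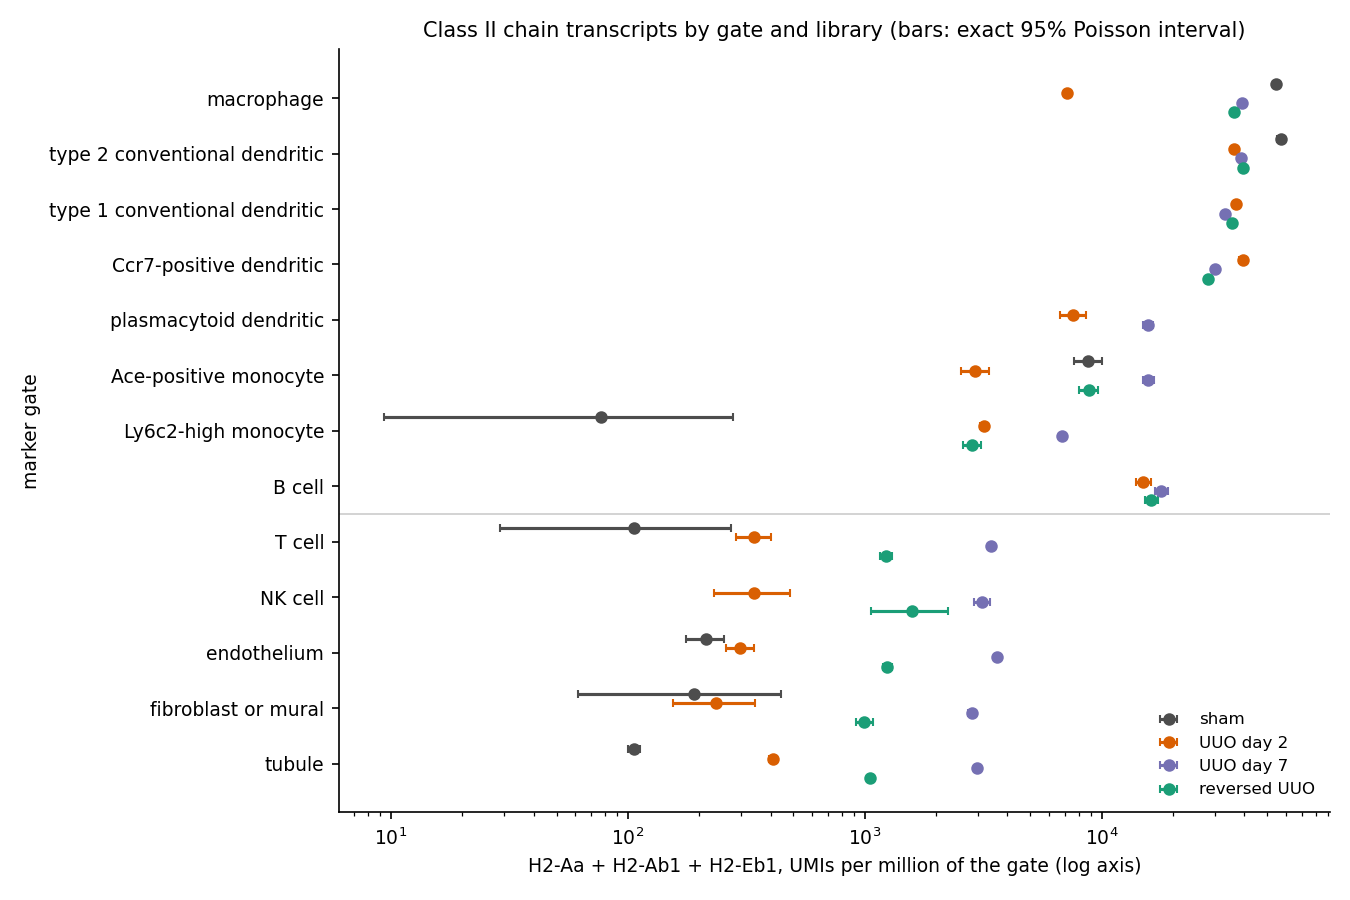
Class II chain CPM (log axis) in each marker gate, 1 point per library with its exact 95% Poisson interval; gates under 5 cells are left out. Macrophages on day 2 lie at 7148 while the conventional and Ccr7-positive dendritic gates of the same library lie at 36206 to 39357.

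The whole phagocyte gate showed the same course in a smaller size. Its class II chains amounted to 41756, 12683, 36306 and 33486 CPM in the sham, day 2, day 7 and reversed libraries. The log2 ratio was -1.72 (-1.75 to -1.69) for day 2 against sham, 1.52 (1.51 to 1.53) for day 7 against day 2, -0.12 (-0.12 to -0.11) for reversed against day 7 and -0.32 (-0.35 to -0.29) for reversed against sham. The make-up of the gate differed too: macrophages were 49.2%, 45.1%, 74.1% and 66.9% of it, and Ly6c2-high monocytes, which carry few class II transcripts, were 8.20%, 20%, 4.84% and 4.53%.

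Each of the chains took part in the day 2 trough in macrophages. H2-Aa, the alpha chain of I-A, was at 19875, 2577, 13217 and 12186 CPM in the same order of libraries. H2-Ab1, its beta chain, was at 19611, 2754, 14120 and 12801 CPM, and H2-Eb1, the I-E beta chain, at 14806, 1817, 11749 and 11213. The log2 ratios of day 2 to sham were -2.95, -2.83 and -3.03, with the widest interval from -3.11 to -2.94, so the chains differed little from one another. The I-E alpha gene has no functional copy in this strain, so H2-Eb1 is transcribed there without its partner. Cd74, the invariant chain, followed at 71764, 10600, 38809 and 36915 CPM, with a log2 ratio of -2.76 (-2.80 to -2.72) for day 2 against sham. After reversal Cd74 stood further below sham than the chains: its log2 ratio of reversed to sham was -0.96 (-1.0 to -0.92), against -0.71, -0.62 and -0.40 for H2-Aa, H2-Ab1 and H2-Eb1.

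The peptide loading genes were also lowest on day 2, by a smaller factor. H2-DMa, the H2-M alpha chain, was at 1196, 455, 1097 and 905 CPM in macrophages of these libraries, a log2 ratio of -1.39 (-1.68 to -1.09) for day 2 against sham. H2-DMb1, the main beta chain in these cells, was at 1517, 362, 1022 and 907 CPM, a log2 ratio of -2.06 (-2.32 to -1.79). The intervals of both lie above those of the chains, but they cover counting error only. With 1 library per group, a difference in factor between loading genes and chains was not tested. H2-DMb2, the other beta chain gene, was at 69.0 (6 UMIs), 12.8, 57.8 and 30.8 CPM. H2-Oa was near the limit of detection in macrophages, at 34.5 (3 UMIs), 4.14, 16.6 and 7.96 CPM, and its log2 ratio of day 2 to sham, -2.79, had an interval from -4.05 to -0.58.

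Ciita, the transactivator, was scarce at every time. Macrophages held 57.5 CPM in sham (5 UMIs, 18.7 to 134) and 15.9 (11.8 to 21.0) on day 2, then 78.6 (73.5 to 83.9) on day 7 and 68.2 (59.0 to 78.4) in reversed UUO. The day 2 level lay below the intervals of the later libraries, at a log2 ratio of 2.23 (1.83 to 2.67) for day 7 against day 2. Against sham the ratio was -1.79 (-2.98 to -0.16), which rests on the 5 sham UMIs. The share of macrophages with a Ciita UMI at an equal depth of 1000 UMIs per cell was 10.0%, 2.89%, 7.76% and 8.02% (16.7%, 15.7%, 35.4% and 33.8% before thinning, at median depths of 2802.5, 12261.5, 6031 and 6365 UMIs). T cells, which should lack it, gave 0%, 0%, 0.702% and 0.398% at the same depth, from median depths of 1723, 3555.5, 3589 and 3128 UMIs.

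**Figure D2:**
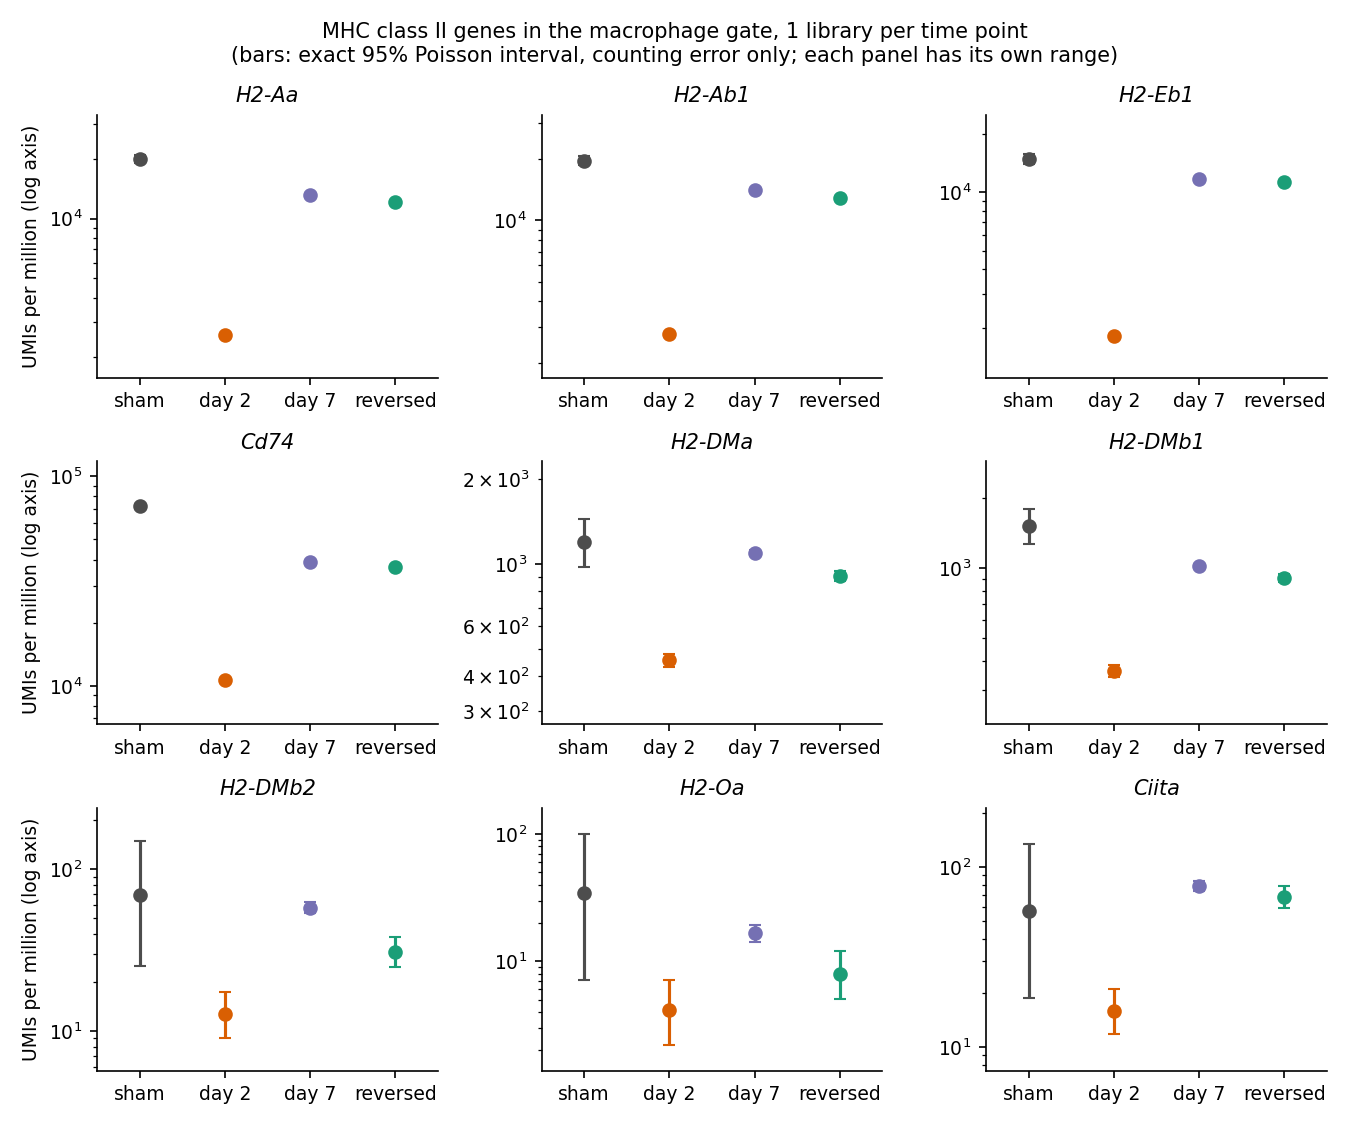
CPM (log axis, a separate range in each panel) of the 9 genes in macrophage-gated cells of the 4 libraries, with exact 95% Poisson intervals. Day 2 is the lowest point in each panel, and the sham intervals of H2-DMb2, H2-Oa and Ciita are wide because they rest on 3 to 6 UMIs.

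Read against all genes, the list moved in 1 direction. A gene was counted as past the fold at a log2 ratio of at least 1 in size, among genes with at least 30 UMIs in the libraries compared. In macrophages, 8 of the 8 class II genes that passed that filter were lower on day 2 than in sham (H2-Oa did not pass), where 10.7% of 7441 genes were. The median log2 ratio was -2.55 for these genes and 0.36 for all genes tested. Sham macrophages summed to 86993 UMIs, against 3136327 on day 2, so a scarce gene can pass the filter through day 2 alone. Its ratio then rests on few sham UMIs, which limits the share and median over all genes as a background. On day 7 against day 2, 9 of 9 were higher, where 9.12% of 10897 genes were, with medians of 2.10 and 0.01. H2-Oa, with 13 UMIs on day 2, passed the filter only through day 7, and its level was at or under that of T cells in both libraries, so its place in that count carries no weight. After reversal, 0 of 9 were lower than on day 7, where 1.71% of 10988 genes were, with medians of -0.17 and -0.03.

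In the whole phagocyte gate the corresponding counts were smaller. On day 2, 7 of 9 were lower than in sham, where 8.20% of 9009 genes were. The other two were H2-DMa, at a log2 ratio of -0.82, and Ciita, at -0.93. From day 2 to day 7, 5 of 9 were higher (the chains, Cd74 and Ciita), where 7.11% of 11659 genes were. After reversal, 0 of 9 were lower than on day 7, where 0.741% of 11742 genes were, and 2 of 9, H2-DMb2 and H2-Oa, were lower than in sham, where 5.39% of 9002 genes were. H2-DMb2 stood at 292 CPM in sham and 142 after reversal and H2-Oa at 220 and 79.9. Both were higher in type 2 dendritic cells than in macrophages (values below), and type 2 dendritic cells were 13.1% of sham phagocytes and 7.21% of reversed ones. The part of that share in the difference was not tested. Trimmed-mean (TMM) scaling raised the log2 ratio of every gene in macrophages by 0.18 for day 2 and by 0.12 for reversed against sham. The class II chains then stood at log2 ratios of -2.74 and -0.47. In the whole phagocyte gate the shift was 0.09 for day 2 against sham. H2-DMb1, counted as lower there at a log2 ratio of -1.08, passed the fold by less than that shift.

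The macrophage gate did not hold the same cells at each time. Of its 30 sham cells, 29 fell in 1 Leiden cluster (cluster 1, made without the class II genes), which held 16 of the 242 macrophages of day 2, 1130 of 1713 on day 7 and 194 of 399 after reversal. Most day 2 macrophages fell in clusters 6 and 22 (129 and 86 cells). Within cluster 1, the chains came to 55581, 14911, 43215 and 42408 CPM in the sham, day 2, day 7 and reversed cells, so day 2 was lowest there too. Clusters 6 and 22 held 5740 and 7263 CPM on day 2, and 26004 and 26982 CPM in the 52 and 58 cells they had on day 7. The day 2 cells also carried less of the markers that define the gate, with a median of 70.2 C1q UMIs per 10000 against 167, 153 and 148. Their median score for Ly6c2-high monocyte markers was 0.0475, against 0 in sham, 0.0323 on day 7 and 0 after reversal. The part of these differences in the day 2 level was not tested. The gate is a range of a marker score: 29 of the day 2 macrophages and 57 of those on day 7 would not pass a stricter cut, and 8, 95, 140 and 56 phagocytes were left in no subset.

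Single cells on day 2 spread over a wide range instead of sharing 1 low level. Per 10000 UMIs, the median macrophage carried 534 chain UMIs in sham and 18.7 on day 2, against 408 on day 7 and 399 in reversed UUO. On day 2, 125 of the 242 macrophages lay under 20 per 10000 and 33 lay over 200. On day 7, 1 of 1713 lay under 20 and 1532 lay over 200, and after reversal 9 and 336 of 399 did. The low mark is not comparable across libraries, since T cells, which should lack the chains, had a median of 34.3 on day 7 with 17 of 285 under 20, while all 98 of day 2 lay under it. The mark of 200 lies above every T cell. The 25th and 75th percentiles on day 2 were 4.14 and 116 per 10000, against 422 and 664 in sham.

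**Figure D3:**
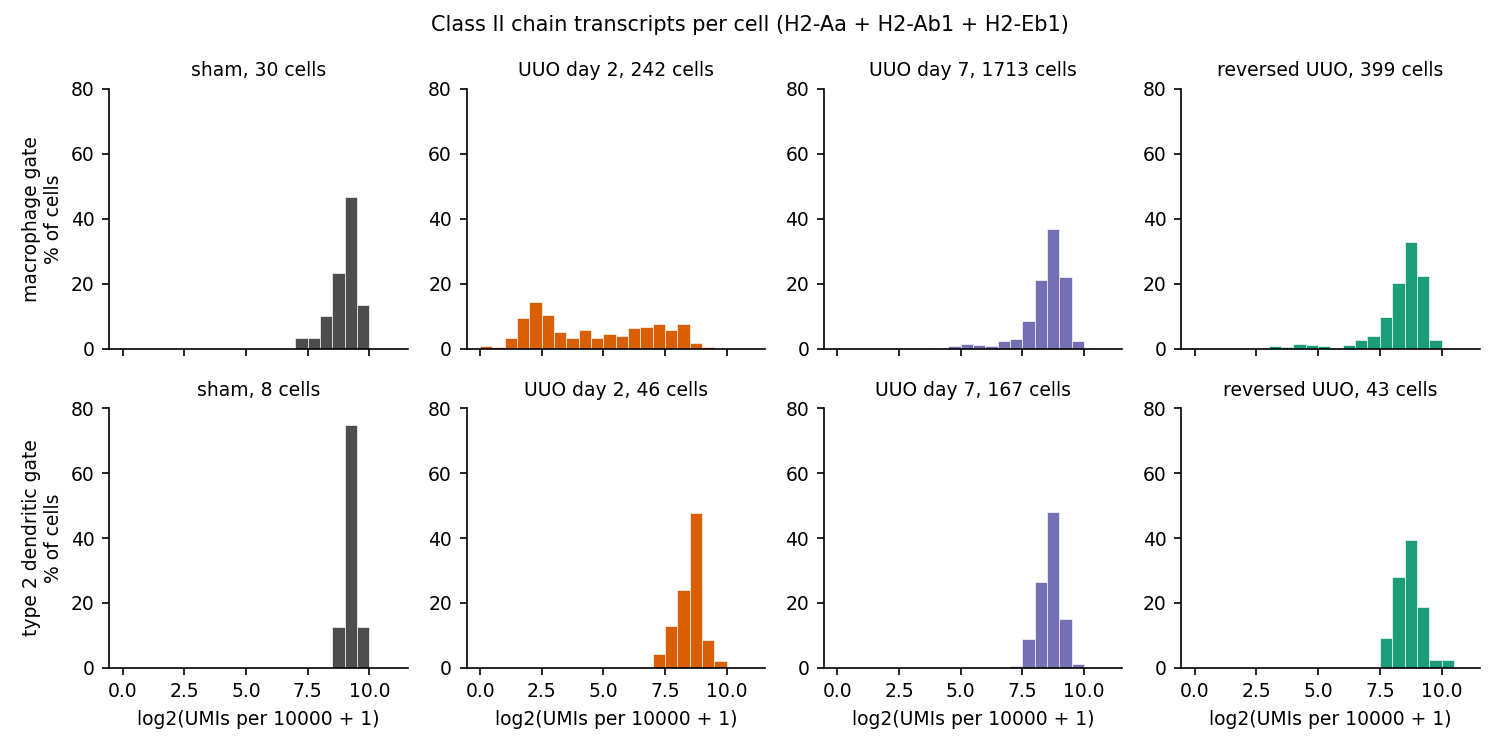
Share of cells (%) by log2(class II chain UMIs per 10000 + 1) in the macrophage and type 2 dendritic gates of the 4 libraries. Macrophages on day 2 spread from near 0 to the range of the other libraries, while type 2 dendritic cells of the same library do not reach below 145 per 10000.

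Conventional dendritic cells, which carry antigen to T cells, stood well above macrophages in class II transcripts on day 2. In the type 2 gate (Cd209a, Flt3, Zbtb46 and others) the chains reached 56992 CPM in the 8 sham cells and 36206 in the 46 of day 2, then 38821 in 167 cells of day 7 and 39603 in 43 reversed cells. Sham was thus the highest library there too, with a median of 586 chain UMIs per 10000 against 390 on day 2. The lowest single cell of day 2 held 145 chain UMIs per 10000. Type 1 dendritic cells (Xcr1, Clec9a) held 36975, 33119 and 35388 CPM on day 2, day 7 and after reversal, and Ccr7-positive dendritic cells, a migratory state, held 39357 (5 cells), 30105 and 28236 CPM. Neither gate had a sham cell. On day 2 the macrophage level was below that of each of these 3 gates, while on day 7 it was 39086 CPM against their 30105 to 38821. Plasmacytoid dendritic cells, the interferon-producing lineage, were lower, at 7562 CPM on day 2 (6 cells) and 15704 on day 7 (17 cells).

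By CPM, Ly6c2-high monocytes carried the fewest chain transcripts of the subsets, apart from the Ace-positive ones of day 2. By the median per cell, Ace-positive monocytes were lower after reversal (17.4 against 19.4 per 10000) but not on day 2 (4.83 against 4.51). Ly6c2-high monocytes, the inflammatory blood monocyte, held 2 UMIs in the 5 sham cells, then 3183 CPM on day 2, 6805 on day 7 and 2837 after reversal. T cells of the same libraries held 339, 3422 and 1227 CPM, so the summed monocyte level was 1.99 to 9.38 times that background. The median monocyte lay nearer to it, at 4.51, 40.0 and 19.4 chain UMIs per 10000 against 2.87, 34.3 and 12.1 in T cells, and on day 2 84 of 107 monocytes lay under 20. Ace-positive monocytes, the patrolling kind, held 8786, 2928, 15717 and 8814 CPM in 10, 16, 18 and 9 cells. Few cells carried these sums: the medians were 0, 4.83, 64.1 and 17.4 chain UMIs per 10000, and 8 of the 10 sham cells lay under 20, so day 2 was lowest by CPM and sham by the median. None of these cells had a Ciita UMI.

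B cells kept a steady level of chains, at 15007 CPM on day 2, 17871 on day 7 and 16220 after reversal (18, 19 and 22 cells). Cd74 was at 26253, 24007 and 23132 CPM there. Each B cell of these libraries had a chain UMI at a depth of 1000, but so did 97.9% of T cells on day 7, so the share separates the classes less well than the level. Ciita was at 173, 138 and 129 CPM in B cells, from 9, 8 and 8 UMIs. For each 1000 chain UMIs this made 11.5, 7.74 and 7.98 Ciita UMIs, against 2.23, 2.01 and 1.88 in macrophages of the same libraries, on the scale of captured molecules.

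H2-Oa, the H2-O alpha chain, was found in B cells and in both types of conventional dendritic cell. It was at 672 (30 UMIs), 310, 284 and 377 CPM in the type 2 gate of the 4 libraries and at 422, 277 and 324 CPM in B cells of the last 3. Type 1 dendritic cells held 162, 156 and 214 CPM. Macrophages stayed between 4.14 and 34.5 CPM, where T cells had 22.1, 16.8 and 18.3 CPM on day 2, day 7 and after reversal, so the macrophage values of those 3 libraries are at or under background. Its partner H2-Ob, a pathway gene here, was highest in B cells, at 403, 467 and 502 CPM. H2-Ob was at 202 (9 UMIs), 63.6, 93.2 and 110 CPM in type 2 dendritic cells, at 113, 126 and 168 CPM in type 1 dendritic cells of the last 3 libraries, and at 57.5 (5 UMIs), 3.19, 11.7 and 14.9 CPM in macrophages.

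The UMIs counted for the H2-M beta chain were split differently between H2-DMb1 and H2-DMb2 in different gates. H2-DMb2 made up 87.0% (81.6 to 91.2) of the H2-DMb1 and H2-DMb2 UMIs in B cells, 69.0% (64.9 to 72.9) in Ccr7-positive dendritic cells and 40.9% (39.4 to 42.4) in type 2 dendritic cells, all libraries together. In type 1 dendritic cells it was 12.0% (10.8 to 13.4) and in macrophages 4.85% (4.53 to 5.20). The intervals of these 5 gates do not overlap, but they cover counting error only, not how shared reads were placed. The order held in the libraries that had the cells: B cells ranged from 77.3% to 95.8%, the Ccr7-positive gate from 62.9% to 72.5%, the type 2 gate from 33.6% to 46.1%, the type 1 gate from 9.97% to 15% and macrophages from 3.29% to 5.35%. On the level scale, H2-DMb2 was at 896, 648, 710 and 825 CPM in type 2 dendritic cells and at 1171, 881 and 1101 CPM in B cells, against 69.0 CPM or less in macrophages. The promoters printed above are alike over the X and Y boxes, and the transcripts of the pair are similar, so reads may have been split between them. In the Smart-seq2 wells, which read the whole transcript, the H2-DMb2 share was 8.27% in 9 type 2 dendritic wells and 1.88% in 251 macrophage wells, so the type 2 share was far lower than by UMIs. A few wells carried even these shares: H2-DMb2 exceeded H2-DMb1 in 1 type 2 and 5 macrophage wells, and its median was 7.65 RPM (read counts scaled as CPM) in type 2 wells, against 1911 RPM of H2-DMb1, and 0 in macrophage wells. How the authors' counting placed shared reads is not given in the sources used here.

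**Figure D4:**
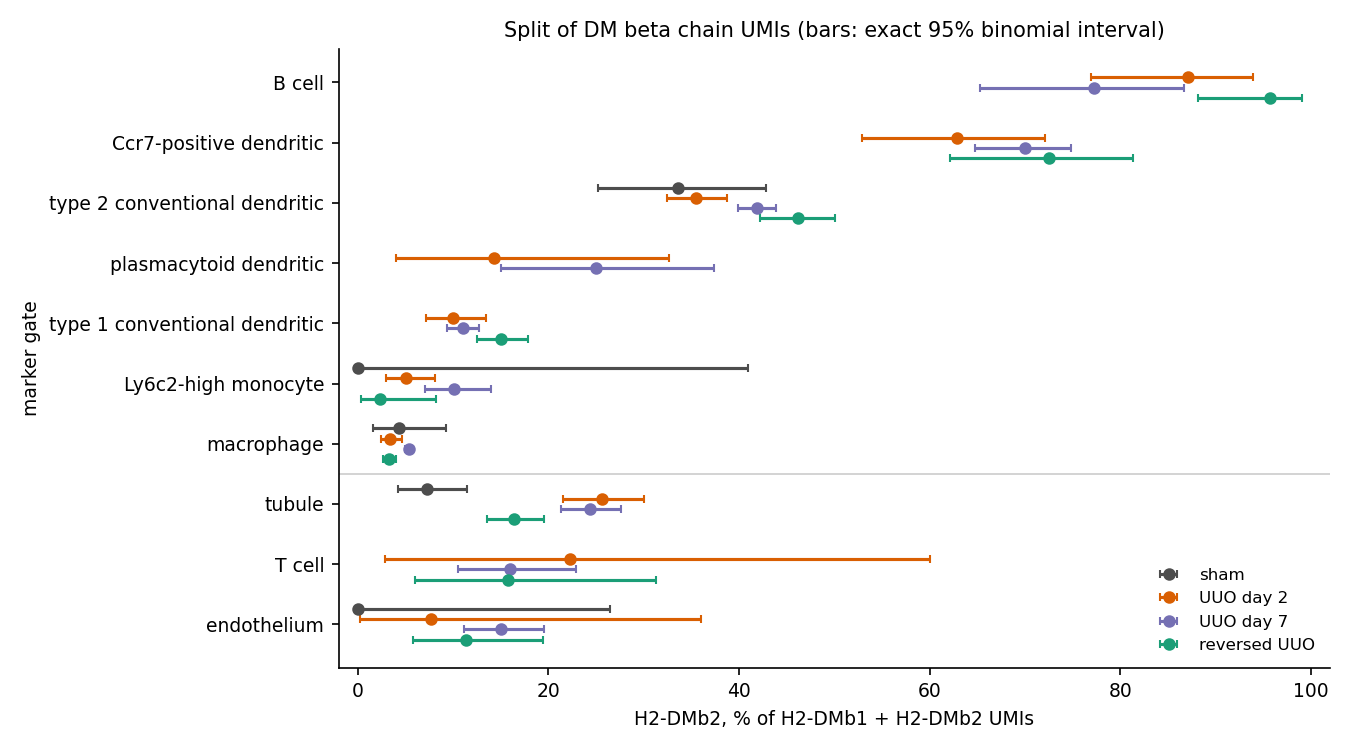
H2-DMb2 as a percentage of the H2-DMb1 and H2-DMb2 UMIs in each gate and library, with exact 95% binomial intervals. B cells lie at 77.3% to 95.8% and macrophages at 3.29% to 5.35%, with the dendritic gates between them.

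Other genes of the pathway were described in macrophages from a list. Day 2 was above sham by the fold for 30.9% of the 7441 genes tested and below it for 10.7%. Scarce genes among them rest on few sham UMIs, since the sham gate summed to 86993 UMIs against 3136327 on day 2. Of 12 listed genes of class II gene regulation, 9 passed the filter in macrophages for day 2 against sham. Irf1, an interferon-induced factor that drives Ciita, was lower (92.0 to 30.6 CPM, log2 ratio -1.56), and Nfyb, a subunit of the Y box factor, was higher on a single sham UMI. Among the genes that passed the fold for day 7 against day 2 were Irf1 (to 69.2 CPM, log2 ratio 1.15) and Rfx5, a subunit of the X box factor (4.14 to 11.7 CPM, 1.30), which with 13 UMIs on day 2 passed the filter only through day 7. The other two RFX subunits and the NF-Y subunits did not pass the fold, with Rfxap at 37.6 and 25.7 CPM and Nfyc at 30.6 and 20.9 CPM on day 2 and day 7. Ifngr1, the interferon gamma receptor, was at 414, 271, 365 and 364 CPM in the 4 libraries. Ifng itself, the inducing cytokine, was at 51.7, 43.3 and 54.8 CPM in T cells and at 110, 84.2 and 105 CPM (2 UMIs) in NK cells on day 2, day 7 and after reversal.

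Among 7 genes of peptide supply and surface turnover, 2 were higher and 2 lower on day 2 than in sham, against 30.9% and 10.7% of all genes tested. Ctsl, an endosomal protease, was at 46.0 (4 UMIs) and 266 CPM, and Ifi30, a thiol reductase that unfolds antigen, at 161 and 442 CPM. Cd83, which protects surface class II from degradation, was lower (218 to 47.2 CPM, -2.19), as was March1, the ligase that removes it (80.5 to 37.3 CPM, -1.09). The interval of March1 reached 0.23, and March1 passed the fold by less than the TMM shift of 0.18. Ctss, the protease that trims the invariant chain, was at 3701, 2320, 4188 and 4385 CPM and passed the fold in neither comparison. Among 3 co-stimulation genes, Cd40 was higher on day 7 than on day 2 (18.2 to 43.7 CPM, 1.22), where 9.12% of all genes were, and none passed the fold on day 2.

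MHC class I genes, which present peptides from inside the cell, were listed for contrast. Of 5 listed, 4 passed the filter and 2, H2-K1 and H2-D1, were lower on day 2 than in sham by the fold, where 10.7% of all genes were. Both passed it by less than the TMM shift of 0.18. H2-K1 was at 1138, 555, 1429 and 1207 CPM in macrophages and H2-D1 at 3299, 1469, 3057 and 2785, with log2 ratios of day 2 to sham of -1.03 and -1.17. B2m, the shared light chain, was at 7288, 3788, 6062 and 5344 CPM, a ratio of -0.94. Nlrc5, the class I counterpart of Ciita, was at 7.33 CPM on day 2 (23 UMIs) and 26.0 on day 7, and passed the filter only through day 7. After reversal no gene of the pathway list passed the fold against day 7 in macrophages, where 2.45% of 10988 genes were higher and 1.71% lower. Cd4 and Lag3, a co-receptor and an inhibitory receptor that bind class II, were also counted in macrophages: Lag3 was at 13.6 CPM on day 7, from 153 UMIs, with 0 UMIs in sham and on day 2. The sham gate summed to only 86993 UMIs, so its 0 says little at such a level. The part of RNA from other cells in the day 7 level was not tested.

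Monocytes and macrophages together were also split by genes of particular cell states. Cells with at least 2 UMIs of Top2a or Mki67, genes of dividing cells, held 19892 CPM after reversal (19 cells) against 34745 (371 cells), but 7537 against 5676 on day 2. Cells with at least 2 UMIs of Mmp12, a macrophage elastase, held 26121 against 35614 CPM after reversal and 7166 against 5929 on day 2. Cells with at least 2 UMIs of the interferon-induced genes Cxcl9 or Rsad2 held 9371 CPM in 13 cells on day 2 against 5967 in 335 cells, but by the median the order was the opposite, at 5.28 and 7.46 chain UMIs per 10000. A cell's depth affects these splits, since a deep cell more easily reaches 2 UMIs, and its part was not tested: on day 2 the median depth was 14759 UMIs in cells with at least 2 Mmp12 UMIs and 9225 in those with none.

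Across the 49 gates by library with at least 20 cells, the genes whose log2(CPM + 1) ran most like the class II chains, the 9 left out, were Ctss (Pearson r 0.915), Slamf8, Plbd1, AF251705, Clec4b1, Rnase6, Ly86, Spi1, Unc93b1 and Mpeg1 (0.893), among 11969 genes. These points share libraries and overlap as gates and subsets, and Ly86, Spi1 and Mpeg1 are markers of the phagocyte gate, so r describes mainly the contrast of phagocytes with other cells. Among the 9, Cd74 had an r of 0.987, H2-DMa 0.963, H2-DMb1 0.910, Ciita 0.895, H2-DMb2 0.840 and H2-Oa 0.734.

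Endothelium and tubule carried class II UMIs in each library, as did T cells. Endothelium held 213, 299, 3618 and 1246 CPM of the chains by library, the tubule 106, 409, 2975 and 1054, and T cells 106 (4 UMIs), 339, 3422 and 1227. Fibroblasts or mural cells held 190 (5 UMIs), 236, 2833 and 996 CPM. The level thus differed by library in the same order in gates that differ in kind, T cells included. Cells of no class held 819, 1088, 6986 and 4576 CPM.

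Endothelium was close to T cells in the last 3 libraries. The ratio of endothelial to T cell CPM was 2.01 (0.766 to 7.51), 0.880 (0.708 to 1.10), 1.06 (1.02 to 1.10) and 1.02 (0.944 to 1.09). The day 7 value lay above 1 by its counting interval but turned to 0.998 with cells of few phagocyte marker UMIs, 0.980 with cluster-based classes and 0.935 without doublet removal. At a depth of 1000 UMIs, 17.2%, 20.8%, 96.6% and 68.5% of endothelial cells had a chain UMI, against 12.5%, 25.5%, 97.9% and 68.5% of T cells (32.4%, 72.1%, 100% and 98.9% against 25%, 63.3%, 100% and 98.4% unthinned). The median endothelial depths were 2343, 3653.5, 3452 and 3761 UMIs. From day 2 on, the endothelial shares at equal depth lay within the counting intervals of the T cell shares, while the unthinned share was higher on day 2. On day 7 the shares are near their ceiling. In sham the background rests on 4 UMIs in 16 T cells, and 17.2% (12.3 to 23.0) of endothelial cells stood against 9.22% (8.22 to 10.3) of tubule cells.

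The tubule stood near T cells in CPM and above them per cell. The ratio of tubule to T cell CPM was 1.00 (0.390 to 3.68), 1.20 (1.01 to 1.44), 0.869 (0.841 to 0.899) and 0.859 (0.808 to 0.914), while the ratio of UMIs per cell was 1.47, 2.25, 1.67 and 1.51. The direction on day 7 and after reversal therefore depends on the scale, and on day 2 cluster-based classes gave 0.930. Shares of tubule cells with a chain UMI at equal depth were 9.22%, 32.2%, 93.8% and 65.7% (23.9%, 86.3%, 100% and 98.9% unthinned), at median depths of 2826, 6564, 7534 and 5271 UMIs. Among segments, proximal tubule, which takes up filtered protein, had the highest ratio to T cells on day 2, at 2.04 (1.72 to 2.45), where the loop of Henle had 0.756 and intercalated cells 0.786. On day 7 proximal tubule stood at 1.06 (1.02 to 1.11), but after reversal at 0.938 (0.881 to 1.00), and in sham at 1.05 (0.409 to 3.87). Its Cd74 ratio to T cells on day 2 was 0.943 (0.830 to 1.08).

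Ratios between transcripts were then compared, since RNA from 1 source keeps its genes in 1 ratio in every gate of a library. Against 6 phagocyte tracers (Lyz2, C1qa, C1qb, C1qc, Tyrobp and Fcer1g), chain UMIs per tracer UMI were 1.92, 0.655, 1.39 and 1.24 in phagocytes, 0.444 (0.100 to 1.59), 0.573, 1.28 and 1.08 in T cells, and 3.55 (2.39 to 5.39), 0.664, 1.46 and 1.43 in endothelium. The tubule had 2.16, 0.913, 1.44 and 1.33. T cells, endothelium and tubule thus held between 0.573 and 1.46 chain UMIs per tracer UMI from day 2 on, and each was lower on day 2 than in the later libraries, as in phagocytes. B cells, which make the chains themselves, had 22.3, 4.74 and 18.2. They did not match the phagocytes exactly. T cells lay below them beyond both intervals on day 7 (1.23 to 1.34) and in reversed UUO (0.991 to 1.17). The tubule lay above the phagocytes beyond both intervals from day 2 on (0.869 to 0.958 against 0.649 to 0.661 on day 2, 1.40 to 1.47 against 1.39 to 1.40 on day 7, and, in reversed UUO, 1.33 with a lower bound of 1.29 against 1.24). Endothelium did so in sham, on day 7 (1.41 to 1.51) and in reversed UUO (1.34 to 1.53), and proximal tubule on day 2 reached 1.47 (1.36 to 1.58).

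**Figure D5:**
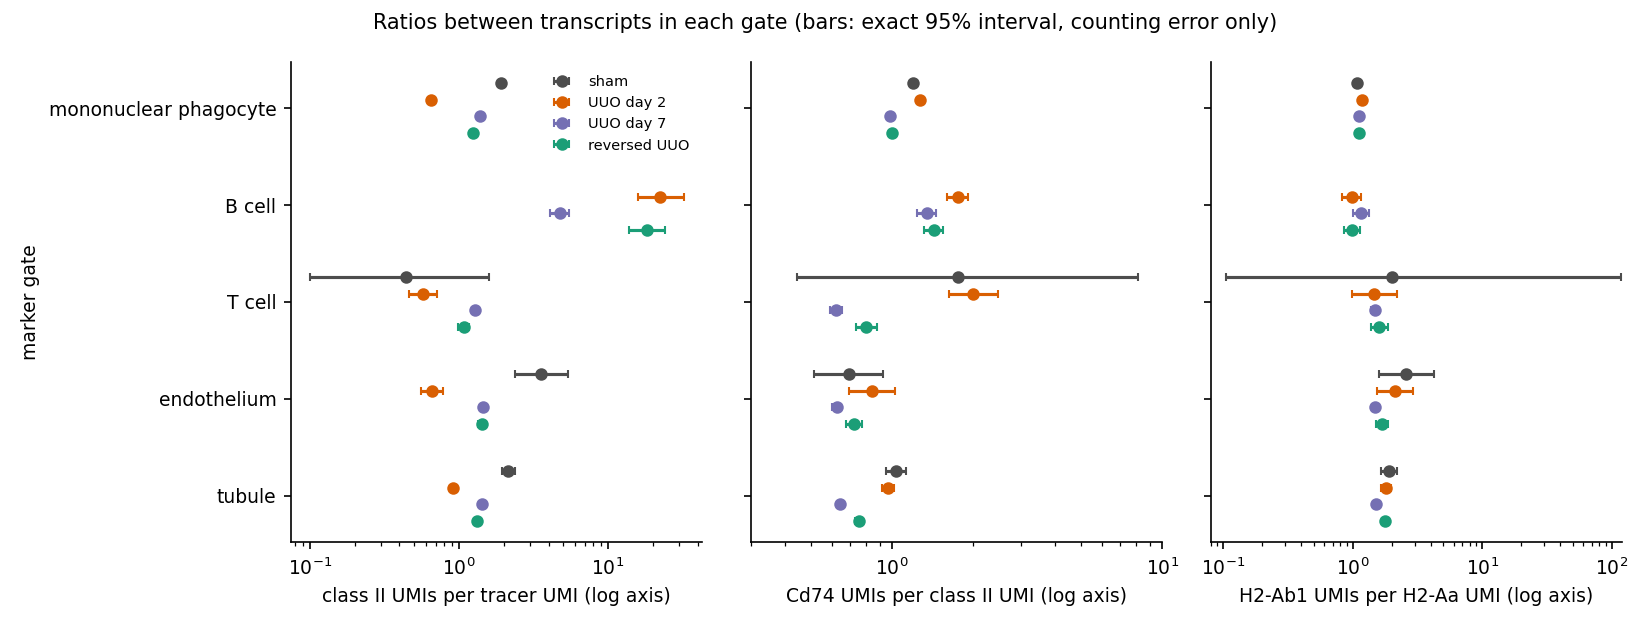
Chain UMIs per phagocyte tracer UMI, Cd74 UMIs per chain UMI and H2-Ab1 UMIs per H2-Aa UMI (log axes) in 5 gates of each library, with exact 95% intervals for counting error. B cells lie at 4.74 to 22.3 chain UMIs per tracer UMI, and on day 7 T cells, endothelium and tubule lie together in the Cd74 and H2-Ab1 ratios.

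The H2-Ab1 and Cd74 ratios set these gates apart from phagocytes as a group on day 7. H2-Ab1 UMIs per H2-Aa UMI were 1.08, 1.17, 1.11 and 1.11 in phagocytes, and 1.49, 1.48 and 1.52 in T cells, endothelium and tubule on day 7. Cd74 UMIs per chain UMI were 0.980 in phagocytes on day 7 and 0.619, 0.624 and 0.643 in those 3 gates. In these ratios the gates were thus close to T cells and not to phagocytes. H2-Eb1 UMIs per H2-Aa UMI separated them less on day 7. That ratio was 0.871 (0.865 to 0.876) in phagocytes, 0.943 (0.870 to 1.02) in T cells and 0.880 (0.827 to 0.936) in endothelium. Only the tubule, at 0.928 (0.891 to 0.966), lay above phagocytes beyond both intervals among these gates. On day 2 the Cd74 ratio was 2.00 (1.62 to 2.47) in T cells but 0.843 in endothelium and 0.968 in the tubule, so T cells did not match the others there.

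Ciita and H2-DMb1 were examined in the same gates. Ciita had 0, 2, 22 and 7 UMIs in endothelium, 0, 13, 23 and 20 in the tubule and 0, 1, 8 and 2 in T cells. On day 7 the ratio of endothelial to T cell CPM was 1.70, with an interval from 0.729 to 4.41. In sham, 0 of 3069 tubule cells had a Ciita UMI at equal depth, which allows a share of up to 0.0978% with a UMI. This limits cells with a UMI, not cells that express the gene, since 10.0% of sham macrophages had one at that depth. H2-DMb1 UMIs per 1000 chain UMIs were 183 (157 to 213) in sham tubule, from 206 UMIs, against 28.6 in sham phagocytes and 103 in sham endothelium. They were 101 (89.6 to 113) against 44.6 in phagocytes on day 2, 32.9 against 26.6 on day 7, and 50.2 (45.8 to 54.8) against 25.7 after reversal. T cells had 50.7 (20 to 107), 29.5 (24.5 to 35.2) and 28.0 (19.1 to 39.8) in these libraries, so the tubule lay above them beyond the intervals after reversal. Sham T cells had no H2-DMb1 UMI in 16 cells, so that library gave no background for this ratio.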

How the data were processed

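Droplet 3′ sequencing of live-sorted kidney cells gave 4 libraries, 1 per group, each pooling 3 mice. Their UMI counts, not normalized, were deposited as a gene by cell matrix for each library. The submitters' processing notes name Cell Ranger and STAR with GRCm38 (mm10), and their versions are not given in the sources used here. The deposited table of the Smart-seq2 wells holds read counts without molecular identifiers. Library totals were 18649637, 19689924, 30462683 and 22943957 UMIs over 5938, 2739, 4504 and 3695 deposited cells for sham, day 2, day 7 and reversed.

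Cells under 200 genes or over 50% mitochondrial UMIs were dropped, and the highest simulated-doublet scores (0.8% per 1000 cells) were removed, which took out 187, 48, 160 and 96 cells. Each cell was scored on marker lists (markers scaled to their 99.5 percentile) that hold none of the 9 genes. A class needed a score of 0.25 and 1.5 times the next, and a phagocyte subset 0.2 and 1.25 times. This scoring rule was set after the data were seen. Gates are ranges of a score, not types. The members and lists were chosen with earlier results of these data known. Named genes are the 9, the pathway list, and the 10 genes most like the chain sum among those with at least 200 UMIs.

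UMIs were summed per gate and library and divided by the gate's total (CPM). Log2 ratios used CPM + 1, and 2-fold counts used genes with at least 30 UMIs. Intervals are exact 95% Poisson or binomial ones and cover counting error only. Shares of cells were also taken after thinning each cell to 1000 UMIs. A count of 0 allows up to 3 UMIs or cells. Leiden clusters (2000 variable genes, 30 components, 15 neighbours, resolution 1) left out the 9 genes and the pathway list. The log2 ratio and its interval were tested on simulated phagocyte sums, for day 2 against sham and day 7 against day 2. Other steps were not tested in this way. Promoters came from RefSeq (GRCm38.p6), and positions from the GRCm38 annotation. The work used scanpy 1.11.5, leidenalg 0.10.2, scipy 1.17.1, numpy 2.4.6 and pandas 2.3.3 under Python 3.11.15, matplotlib 3.10.9, R 4.3.3 and, for TMM factors, edgeR 4.0.16. Alternatives covered the scaling, the mitochondrial limit, the weight of a cell, subtraction of T cell UMIs, the gates, clusters in place of gates, and doublet removal. Some genes of these lists are not reported here.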

Additional observations from a re-analysis of the deposited data

Results flagged for a closer look

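Against sham, the class II chains moved in opposite directions in phagocytes and in endothelium and tubule. For day 2 against sham, the log2 ratio was -1.72 in phagocytes, 0.48 in endothelium and 1.94 in the tubule. For reversed against sham it was -0.32 in phagocytes, 2.54 in endothelium and 3.30 in the tubule. T cells, which should lack the chains, were also higher than in sham on day 2 and after reversal, though from 4 sham UMIs. From day 2 to day 7 the chains rose in phagocytes, endothelium and tubule alike, and from day 7 to reversal they fell in each. Phagocytes were 1.63%, 24.8%, 53.9% and 19.0% of the cells kept from sham, day 2, day 7 and reversed kidneys. With 1 library per group, the difference between gates was not tested.

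The Smart-seq2 wells, which no comparison of time points uses, also held class II reads: all 416 wells that passed the read and gene minimums had reads of all 3 chains.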

How the results depend on the processing

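No paired analysis was possible because each group is 1 library, and for the same reason no replicate could be left out. Values are log2 ratios of the chain sum. In phagocytes, day 2 against sham was -1.63 with TMM factors. Day 7 against day 2 was 1.5 with TMM factors and also with cluster classes, 1.59 with each cell weighing the same, 1.44 after subtracting T cell UMIs and 1.54 without doublet removal. Reversed against day 7 was -0.20 with TMM factors, -0.05 with equal weights and also after subtraction, and -0.13 with cluster classes. Reversed against sham was -0.17 with equal weights and -0.35 with cluster classes. The macrophage alternatives were chosen after seeing the data. Day 2 against sham was -2.74 with TMM factors, -2.98 at 20% mitochondrial UMIs, -2.86 with equal weights and -3.01 with a stricter gate. Day 7 against day 2 was 2.48 with TMM factors and also without doublet removal, 2.39 after subtraction and 2.55 with the stricter gate. Reversed against day 7 was -0.20, -0.03 and -0.05 with TMM factors, equal weights and subtraction. Reversed against sham was -0.47, -0.63 and -0.46 with TMM factors, 20% mitochondrial UMIs and equal weights. None of these changed direction.

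Ratios to T cells were less steady. Endothelium on day 2 was 0.697 with cluster classes, and on day 7 it turned to 0.998 with fewer phagocyte marker UMIs, 0.980 with cluster classes and 0.935 without doublet removal. After reversal it was 1.27 per cell and 1.22 without doublet removal. The tubule on day 2 was 2.25 per cell and 1.45 with fewer marker UMIs, and turned to 0.930 with cluster classes. On day 7 it turned to 1.67 per cell and was 0.776 without doublet removal, and after reversal it turned to 1.51 per cell. Of these chain-sum values, 50 stayed within their counting interval, 32 moved beyond it and 6 turned, and the causes were not tested. Among single genes in phagocytes, equal weights turned H2-DMb2 for reversed against day 7 (0.07) and H2-Oa for day 7 against day 2 (-0.01). Sham depth limits H2-DMb2, H2-Oa and Ciita most, at 3 to 6 macrophage UMIs.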

Other observations

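The Smart-seq2 sample held 768 wells on 8 plates whose time points could not be told apart, so its values are given as a description over wells. After minimums of 50000 reads and 1000 genes, 416 wells were kept, with a median of 440854 reads. The chains took a median of 29325 RPM (a gene's reads over all reads of its well, scaled as CPM), and the 5th and 95th percentiles were 183 and 103635. There were 269 wells over 10000 RPM and 63 under 1000. Plate medians ran from 21292 to 37337.

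By the same marker lists, 330 wells fell in the phagocyte gate. The median was 38691 RPM in 251 macrophage wells, 67816 in 9 type 2 dendritic wells, 13110 in 9 wells of Ly6c2-high monocytes and 644 in 24 wells of Ace-positive monocytes. H2-DMb2 made up 1.88% of the H2-DMb1 and H2-DMb2 reads in macrophage wells, 8.27% in type 2 dendritic wells, 0.600% in Ly6c2-high and 0.263% in Ace-positive monocyte wells. H2-Oa was read in 88.9% of the type 2 dendritic wells and 19.9% of the macrophage wells. A Ciita read was present in 68.8% of the wells kept.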
